A study of Mus musculus with 3 samples.

Results

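The 10 genes described here are a list of glomerular basement membrane genes. The list holds the collagen IV chains Col4a1, Col4a2, Col4a3, Col4a4, Col4a5 and Col4a6, the laminin chains Lama5, Lamb2 and Lamc1, and agrin (Agrn). They were taken by their known place in this membrane, except Col4a6, a collagen IV chain known from Bowman's capsule. The list is 10 of the 22535 genes with a count in the 3 libraries and was not taken by measured values. Their UMIs (unique molecular identifiers, each standing for 1 captured mRNA molecule) were summed over the cells of each marker-defined cell class in each library.

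The glomerular basement membrane is the sheet of matrix between the fenestrated endothelium and the podocytes, and it is part of the filter that holds back plasma proteins. Collagen IV is secreted as trimers: an alpha-1/alpha-1/alpha-2 trimer is found in basement membranes throughout the body, an alpha-3/alpha-4/alpha-5 trimer is the collagen of the mature glomerular membrane, and an alpha-5/alpha-5/alpha-6 trimer lies in Bowman's capsule. The laminin of the mature membrane is built of alpha-5, beta-2 and gamma-1 chains, and beta-1 (Lamb1) takes the place of beta-2 in the immature membrane and in many tubule basement membranes. Agrin is the main heparan sulfate proteoglycan of the membrane, and inherited loss of COL4A3, COL4A4 or COL4A5 causes Alport syndrome, whereas loss of LAMB2 causes Pierson syndrome.

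Single cells were captured on the BD Rhapsody platform from kidney cortex of WT1CreERT2; Rosa26-tdTfl/+ mice, in which tamoxifen lets the Cre driven from the Wt1 locus switch on the red reporter tdT in cells that express Wt1, and in the cells that descend from them. All 3 libraries carry these alleles. The Sham library was made from kidneys after sham surgery and holds tdT+ cells, enriched by sorting, mixed with tdT- cells. IRI24h-TDN is such a mixture taken 24 h after both kidneys had undergone severe ischemia-reperfusion injury (IRI). IRI24h-TD, collected equally late after the injury, holds only sorted tdT+ cells. Each group is 1 library, so no difference below has a replicate check, no test was made, and a difference between conditions cannot be told apart from a difference between libraries. The sort and the mix also set how many cells of each class a library holds.

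After barcodes with under 200 genes or over 50% mitochondrial UMIs were removed, 8047 of 10062 barcodes remained in Sham, 9024 of 10062 in IRI24h-TDN and 9689 of 9884 in IRI24h-TD. Median UMIs per kept cell were 7746, 9151 and 9529. Between 82 and 96 kept barcodes were shared by each pair of libraries. Levels are given as UMIs per 1000000 UMIs of the class (CPM), with exact 95% Poisson intervals, and shares with exact 95% binomial (Clopper-Pearson) intervals. All intervals cover counting error only.

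Cells were clustered with the 10 genes and the related genes listed further on left out, and clusters were named from marker lists. Most cells were podocyte-like (4379 in the Sham library, 5215 and 8776 in the IRI ones), and they carried all 10 podocyte markers. Of the cells of IRI24h-TD, whose label names mostly podocytes and parietal cells, 90.6% were podocyte-like and 2.91% parietal-like. Parietal-like cells, the epithelium that lines Bowman's capsule, numbered 749, 209 and 282. Of them only 360, 163 and 178 cells were richest in the parietal list, and the summed proximal tubule list of the class stood at 4446 CPM in Sham, 2182 and 1862 after IRI. Endothelial-like cells numbered 177, 95 and 7, and tubule-like cells 1532, 1680 and 163. No cluster could be called mesangial-like under the marker list, so smooth muscle or renin-like cells (262, 426 and 14), the nearest stromal class, are given in its place. Classes with under 50 cells in a library were not compared there, and the class names are rebuilt ones, so a difference from another naming of these cells may come from the names.

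On GRCm38 the 6 collagen IV genes lie in 3 pairs that start next to each other and run in opposite directions. Col4a3 (chr1:82586921-82722059, plus strand) and Col4a4 (chr1:82448423-82586849, minus strand) are 71 bases apart. Col4a5 (chrX:141475385-141689234, plus) and Col4a6 (chrX:141165403-141474076, minus) are 1308 bases apart. Col4a1 (chr8:11198423-11312826, minus) and Col4a2 (chr8:11312805-11449287, plus) overlap by 22 bases at their starts, and whether the authors' counting used strand is not given in the sources used here. Lama5 lies at chr2:180176373-180225859 (minus), Lamb2 at chr9:108479736-108490530 (plus), Lamc1 at chr1:153218922-153332786 (minus) and Agrn at chr4:156165290-156197488 (minus).

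Because the levels of the paired genes are set side by side below, the sequence upstream of 3 of the starts is shown, from RefSeq on GRCm38.p6, each in the direction of the named gene. The first is the whole stretch between the Col4a4 and Col4a3 starts (chr1:82586850-82586920, minus strand). The others lie directly upstream of Col4a5 (chrX:141475169-141475384, plus strand) and of Col4a6 (chrX:141474077-141474326, minus strand), within the longer stretch between those genes. Capitals mark matches to searched motifs.
Col4a4: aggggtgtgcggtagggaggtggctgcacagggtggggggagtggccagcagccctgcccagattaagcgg
Col4a5: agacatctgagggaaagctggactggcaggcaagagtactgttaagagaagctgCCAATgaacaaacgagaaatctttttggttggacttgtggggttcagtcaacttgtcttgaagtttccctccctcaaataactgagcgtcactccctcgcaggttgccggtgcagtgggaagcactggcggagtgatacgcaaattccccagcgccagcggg
Col4a6: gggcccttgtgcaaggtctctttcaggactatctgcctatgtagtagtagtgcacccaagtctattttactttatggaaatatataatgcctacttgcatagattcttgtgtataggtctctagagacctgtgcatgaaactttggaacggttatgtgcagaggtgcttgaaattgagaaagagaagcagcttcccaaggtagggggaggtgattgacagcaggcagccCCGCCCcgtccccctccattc

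Both strands were searched for the motif GGGCGG, which reads CCGCCC on the reverse strand. The same was done for CCAAT, which reads ATTGG in reverse, for TATAAA, which reads TTTATA in reverse, and for TAATTA, which reads alike on both. The Col4a5 stretch held 1 CCAAT and the Col4a6 stretch 1 CCGCCC, and the stretch between Col4a4 and Col4a3 held none of the 4. In the promoter table, 35.7% of 32851 windows held GGGCGG, 37.4% CCAAT, 13.6% TATAAA and 5.29% TAATTA. Of 9 windows that matched 8 of the 10 genes, 7 held GGGCGG, 3 CCAAT and none either of the other motifs. A match is a description of the letters in the window and not a site.

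In Sham, the chains of the alpha-3/alpha-4/alpha-5 trimer were highest in podocyte-like cells. Col4a3 stood at 2726 CPM (2709 to 2743) in podocyte-like cells, 271 in parietal-like, 222 in tubule-like, 119 in endothelial-like and 52.3 in smooth muscle or renin-like cells. Each step in that order was larger than the counting intervals, and the podocyte-like level was 10.04 times the parietal-like one and 12.3 times the tubule-like one. Col4a4 stood at 2674 CPM (2657 to 2691) in podocyte-like cells, followed by 497 in parietal-like, 448 in tubule-like, 108 in endothelial-like and 95.5 in smooth muscle or renin-like cells, where only the last pair had overlapping intervals. Col4a5 was spread more evenly, at 408 CPM (401 to 415) in podocyte-like cells, 224 in parietal-like, 130 (112 to 150.4) in smooth muscle or renin-like, 39.8 (36.6 to 43.3) in tubule-like and 33.1 (18.5 to 54.5) in endothelial-like cells. Only the last pair overlapped. The order below podocyte-like cells depended on how cells were named. With no limit on podocyte genes in other clusters, Col4a3 was 896 CPM in endothelial-like, 338 in tubule-like and 253 in smooth muscle or renin-like cells, and without cells richer in another marker list it was 106 CPM in parietal-like cells, below tubule-like cells.

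Nearly every podocyte-like cell carried this collagen. Col4a3 and Col4a4 were both detected in 99.1% of podocyte-like cells of Sham, 99.98% of those of IRI24h-TDN and 98.9% of those of IRI24h-TD, with a median of 21, 31 and 32 Col4a3 UMIs per cell. All 3 chains were detected together in 89.4%, 98.2% and 95.1% of them. Detection of Col4a3 also reached 20.4% of monocytic-like cells in Sham (median 4017 UMIs, against 8241 in podocyte-like cells) and 15.1% in IRI24h-TDN, a class of leukocytes that is not known to make this collagen. When every cell was thinned to 2400 UMIs, the shares with Col4a3 in Sham were 99.3% of podocyte-like, 36.4% of tubule-like and 10.5% of monocytic-like cells.

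The level in monocytic-like cells was taken as a measure of background for the other classes. In Sham it was 53.8 CPM (40.7 to 69.7) of Col4a3 and 70.8 CPM (55.7 to 88.7) of Col4a4, and in IRI24h-TDN 28.1 and 35.7 CPM. The podocyte markers, summed over their list, stood at 1586 CPM in monocytic-like cells and 968 in smooth muscle or renin-like cells of Sham. Col4a3 in smooth muscle or renin-like cells (52.3 CPM) was no higher than in monocytic-like cells. Their Col4a4, at 95.5 CPM (80.1 to 113), had an interval that overlapped the monocytic-like one. Whether these levels are background was not tested. Tubule-like cells held 1140 CPM of the podocyte list, below the monocytic-like level, and several times more Col4a3 and Col4a4 than monocytic-like cells. Of the UMIs of Col4a3 and Col4a4 together, Col4a3 made up 50.5% in podocyte-like, 43.2% (34.6 to 52.1) in monocytic-like and 33.2% in tubule-like cells of Sham. The part of background RNA in the tubule-like levels was not tested either.

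Of the classes compared in Sham, podocyte-like cells instead held the lowest levels of the alpha-1 and alpha-2 chains. Col4a1 in Sham was highest in parietal-like cells at 1134 CPM (1109.6 to 1159.7), followed by endothelial-like cells at 937 (849.9 to 1030.4) and smooth muscle or renin-like cells at 819 (773 to 868), whose intervals overlapped. It was 136 CPM in tubule-like and 5.97 CPM (5.20 to 6.81) in podocyte-like cells, the latter 190 times lower than in parietal-like cells and below the 14.2 CPM (7.92 to 23.3) of monocytic-like cells. Col4a2 had the order smooth muscle or renin-like (530.5 CPM), parietal-like (444), endothelial-like (390.2), tubule-like (68.8) and podocyte-like (6.46). The parietal-like and endothelial-like intervals overlapped. Both Col4a1 and Col4a2 were detected in 76.9% of parietal-like cells and in 0.434% of podocyte-like cells.

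Col4a6, the chain that joins Col4a5 in Bowman's capsule, was scarce everywhere. Sham held 335 Col4a6 UMIs in podocyte-like cells (9.13 CPM, 8.18 to 10.2), 138 in parietal-like cells (19.8 CPM, 16.6 to 23.3), 17 in smooth muscle or renin-like, 9 in tubule-like and 1 in endothelial-like cells. None was counted in monocytic-like cells. The level in parietal-like cells was above that in podocyte-like cells, while the intervals of smooth muscle or renin-like cells reached both.

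The laminin chains were shared by more classes. Lamb2 was highest in smooth muscle or renin-like cells at 508 CPM (471 to 546), followed by podocyte-like cells at 299.8 (294 to 305), endothelial-like cells at 247 (203 to 297), parietal-like cells at 112 and tubule-like cells at 26.1, with an overlap between podocyte-like and endothelial-like cells. Lama5 spanned 101 to 185 CPM in the smooth muscle or renin-like, podocyte-like, endothelial-like and parietal-like cells and was 42.8 CPM in tubule-like cells. Lamc1 stood at 207 CPM in endothelial-like, 171 in smooth muscle or renin-like, 109 in podocyte-like, 109 in parietal-like and 31.5 in tubule-like cells, where only the steps below smooth muscle or renin-like and below parietal-like cells were wider than the intervals. Monocytic-like cells held 6.60, 13.2 and 17.0 CPM of Lama5, Lamb2 and Lamc1.

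Agrn was highest in podocyte-like cells at 298 CPM (292 to 304), then parietal-like at 232 (221 to 243), endothelial-like at 209 (169 to 256), smooth muscle or renin-like at 117 and tubule-like cells at 68.2. In all, 4 of the 10 genes (Col4a3, Col4a4, Col4a5 and Agrn) had their highest Sham level in podocyte-like cells. In IRI24h-TDN the number was again 4, but they were Col4a3, Col4a4, Col4a5 and Col4a6. There Agrn was 231 CPM in parietal-like and 222 in podocyte-like cells, with overlapping intervals. Col4a6 was 20.3 CPM in podocyte-like and 13.8 CPM (33 UMIs) in parietal-like cells of that library, and these intervals overlapped as well.

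**Figure D1:**
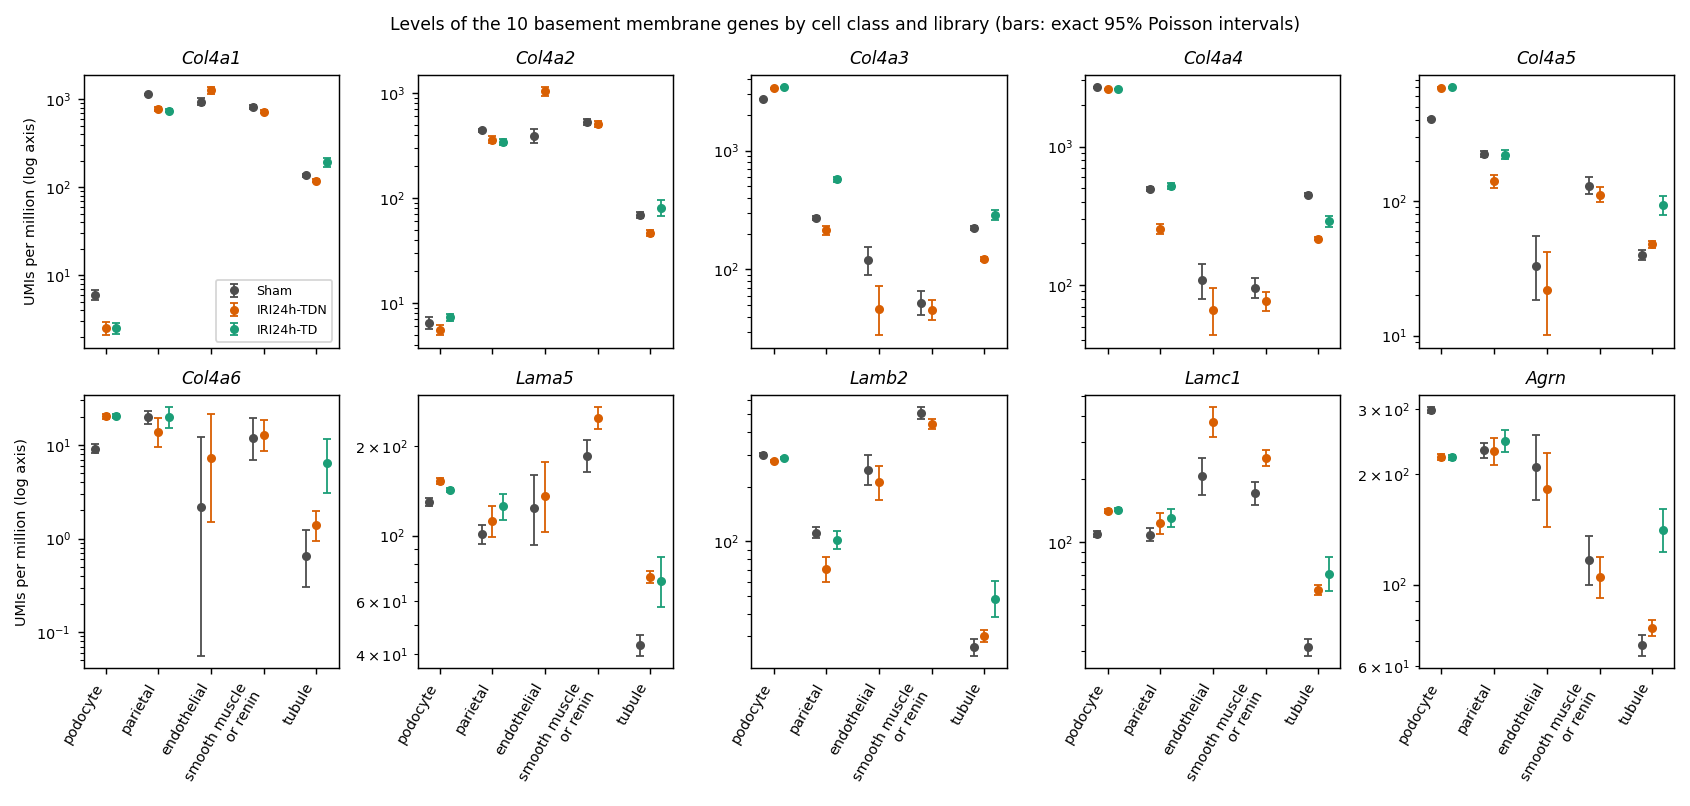
Level of each of the 10 genes in CPM (log axis, 1 panel a gene) in podocyte-like, parietal-like, endothelial-like, smooth muscle or renin-like and tubule-like cells. Points are single libraries and bars exact 95% Poisson intervals; IRI24h-TD is drawn only where it holds at least 50 cells. Col4a3 and Col4a4 lie above 2500 CPM in podocyte-like cells of all 3 libraries, where Col4a1 lies below 6 CPM.

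Podocyte-like cells made up 54.4% of the cells of Sham, and a share of UMIs rests on both the number of cells and the level in them. They held most of the molecules of 8 genes. In Sham they contributed 89.6% of Col4a3, 85.7% of Col4a4, 81.3% of Col4a5, 79.0% of Lamb2, 74.0% of Agrn and 60.6% of Col4a6 UMIs, but 1.72% of Col4a1 and 3.95% of Col4a2. Parietal-like cells held 62.2% of the Col4a1 and 51.7% of the Col4a2 UMIs of Sham. In IRI24h-TDN, which holds fewer parietal-like cells, the share of Col4a1 was 22.3% in parietal-like, 31.4% in tubule-like and 19.5% in smooth muscle or renin-like cells.

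The chain make-up of collagen IV also differed between the classes. UMIs are counted per molecule and capture may differ between genes, so these shares compare classes and not the amounts of the chains. Col4a1 and Col4a2 together gave 0.213% of the collagen IV UMIs of podocyte-like cells in Sham, 22.4% in tubule-like, 60.9% (60.2 to 61.6) in parietal-like, 82.3% in smooth muscle or renin-like and 83.5% in endothelial-like cells. After IRI the share was 0.121% and 0.145% in podocyte-like cells of IRI24h-TDN and IRI24h-TD, and 94.2% in endothelial-like cells of IRI24h-TDN. In parietal-like cells it was 64.6% in IRI24h-TDN and 44.7% in IRI24h-TD, on either side of Sham.

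**Figure D2:**
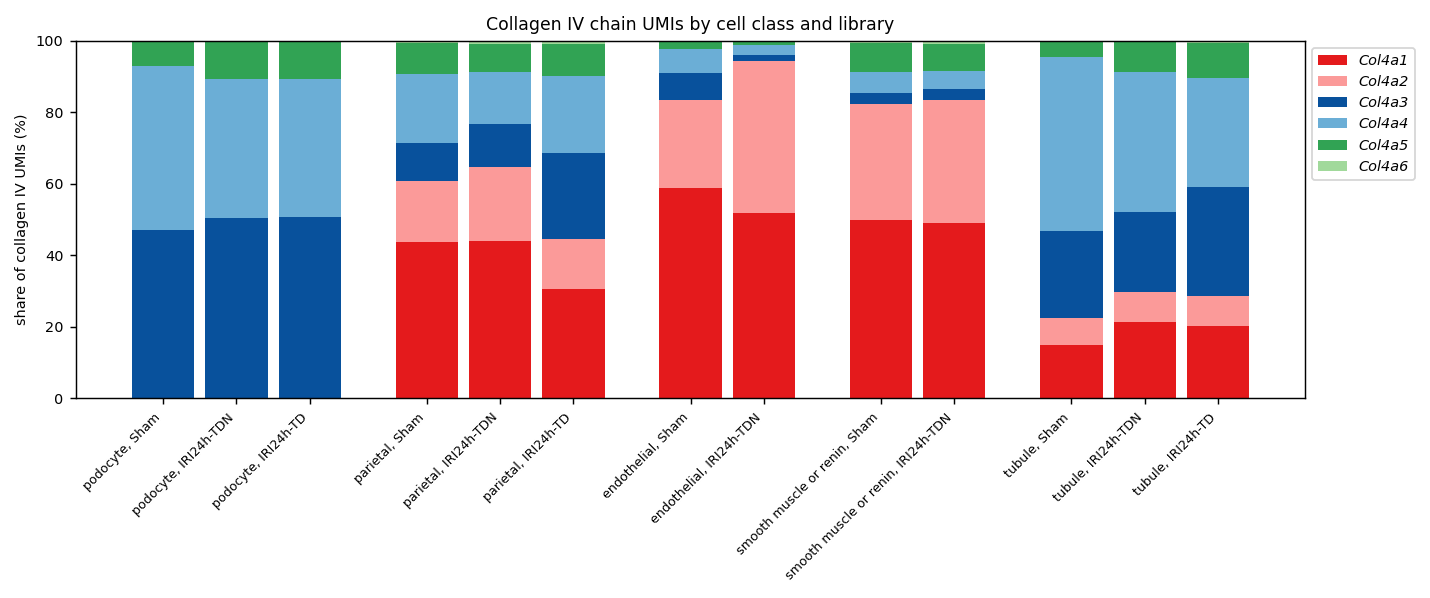
Share of collagen IV UMIs (percent) given by each of the 6 chains, stacked, for each class and library with at least 50 cells. Podocyte-like bars are almost wholly Col4a3, Col4a4 and Col4a5, with 0.121% to 0.213% from Col4a1 and Col4a2, whereas these give 82.3% to 94.2% in smooth muscle or renin-like and endothelial-like cells.

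Within the parietal-like class, 3 clusters differed in these genes, which were not used to form them. Cluster 10 (521 cells, led by Wfdc16 and Sfrp5) and cluster 16 (341 cells, led by Wnt16 and Tnc) held 137 and 134 CPM of Col4a3 in Sham, and 983 and 1829 CPM of Col4a1. The summed proximal list of cluster 10, at 6094 CPM, was above its parietal list, at 5439 CPM. In cluster 16 these lists stood at 527 and 11210 CPM. Cluster 14 (378 cells, led by Clstn2 and Tenm2) held 756 CPM (713 to 801) of Col4a3, 1149 CPM of Col4a4 and 552 CPM of Col4a1, and its summed podocyte list, at 10630 CPM, was also high. Col4a6 was 4.67 CPM (2.67 to 7.59) in cluster 10, 32.7 (24.3 to 43.2) in cluster 14 and 35.5 (27.8 to 44.7) in cluster 16. Whether clusters 10 and 14 each hold cells of a single kind or barcodes with mixed RNA was not tested.

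Beta-2 against beta-1 laminin split the same clusters. Lamb2 gave 99.2% of the Lamb1 and Lamb2 UMIs of podocyte-like cells in Sham, and 99.4% and 99.7% of them in the IRI libraries. The share was 94.0% in smooth muscle or renin-like, 81.2% in endothelial-like, 30.4% in parietal-like and 19.3% in tubule-like cells of Sham. It was 14.1% in cluster 10 and 16.8% in cluster 16, but 92.6% in cluster 14. Intercalated-like cells, acid-base cells of the distal nephron, stood apart from the other tubule classes at 57.6%, against 15.3% in proximal-like cells. Their summed podocyte list was 1777 CPM in Sham, against 935 in proximal-like cells, and its part in the share was not tested.

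**Figure D3:**
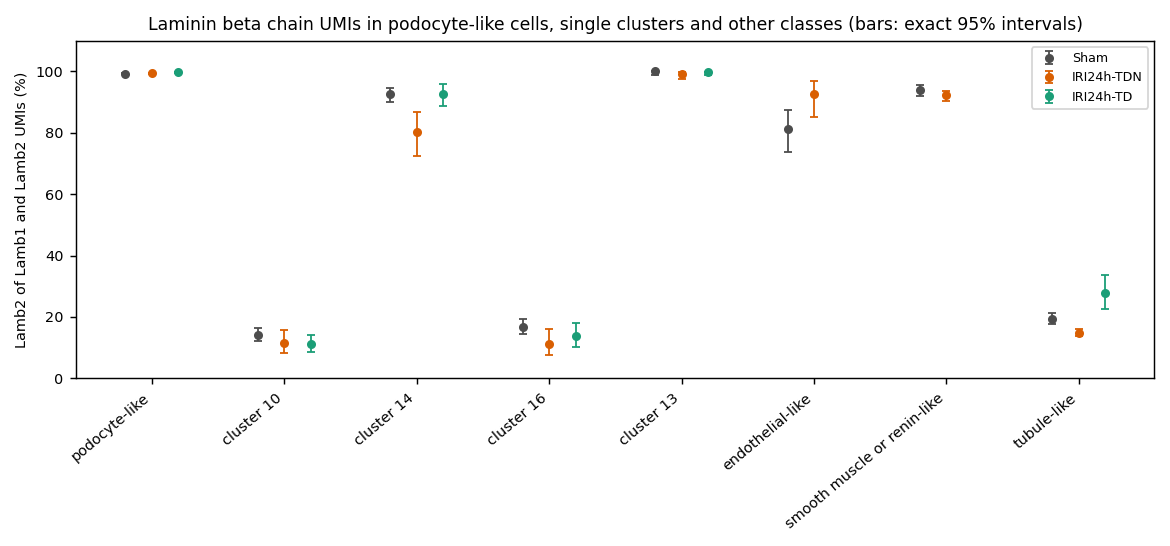
Lamb2 as a percentage of Lamb1 and Lamb2 UMIs by class, with the 3 parietal-like clusters and cluster 13 drawn singly, for each library; bars are exact 95% binomial intervals. Cluster 14 lies at 92.6% in Sham, near podocyte-like cells at 99.2%, while clusters 10 and 16 lie at 14.1% and 16.8%.

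The comparison of IRI24h-TDN with Sham addressed whether these genes differ a day after severe injury, and IRI24h-TD gave another library against the same Sham, so both comparisons share it and are not independent. A fold change is given as log2 of the ratio of CPM, with an exact conditional binomial interval, for genes with at least 10 UMIs over both libraries. A fold of 2 (log2 of 1) was the mark against which genes were counted.

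In podocyte-like cells Col4a5 and Col4a6, the X-linked pair, were higher in both libraries after IRI. Sham held 408 CPM of Col4a5, IRI24h-TDN 697 (689 to 704) and IRI24h-TD 698 (693 to 704), log2 differences from Sham of 0.77 (0.74 to 0.80) and 0.78. In cells thinned to 2400 UMIs, Col4a5 was detected in 58.4%, 79.1% and 77.8% of podocyte-like cells. Sham held 9.13 CPM of Col4a6, IRI24h-TDN 20.3 (19.0 to 21.6) and IRI24h-TD 20.6 (19.7 to 21.6), log2 differences of 1.15 (0.97 to 1.33) and 1.18 (1.01 to 1.35). For both genes the IRI libraries overlapped each other and lay apart from Sham. Cluster 4 of this class, with Ctgf among its leading genes, held 220 of 4379 cells in Sham. It held 672 of 5215 in IRI24h-TDN and 1136 of 8776 in IRI24h-TD, and its part in these differences was not tested.

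The partners of Col4a5 in the trimer differed less. In the 3 libraries, in the order Sham, IRI24h-TDN, IRI24h-TD, podocyte-like cells held 2726, 3349 and 3427 CPM of Col4a3, log2 differences of 0.30 and 0.33, and Col4a4 was 2674, 2581 and 2609 CPM, log2 differences of -0.05 and -0.04. Col4a5 thus gave 7.02% of the UMIs of the 3 chains in Sham, against 10.5% in IRI24h-TDN and 10.4% for IRI24h-TD. Col4a3 gave 50.5%, 56.5% and 56.8% of the Col4a3 and Col4a4 UMIs.

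Col4a1 in podocyte-like cells was 5.97 CPM in Sham and 2.49 CPM in each IRI library, a log2 difference of -1.26 (-1.59 to -0.94 in IRI24h-TDN). All of these levels are below those of monocytic-like cells in Sham and IRI24h-TDN (14.2 and 13.3 CPM). The part of background RNA in them was not tested. Col4a2 was 6.46, 5.54 and 7.30 CPM.

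Among the laminin chains and agrin, podocyte-like Lamc1 stood at 109, 141 and 143 CPM in the same order of libraries, log2 differences of 0.37 and 0.39. Lama5 was 129.8, 153 and 142 CPM, and Lamb2 299.8, 276 and 288 CPM. Agrn was 298, 222 and 222 CPM, log2 differences of -0.42 and -0.43, and lower in both IRI libraries than in Sham. The alpha-5, beta-2 and gamma-1 chains were all detected in 25.4%, 41.8% and 42.7% of podocyte-like cells, whose median UMIs were also higher after IRI (8241, 9328 and 9582).

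By count, 2 of the 10 genes were past 2-fold in podocyte-like cells of IRI24h-TDN, 1 higher (Col4a6) and 1 lower (Col4a1), where 18.1% of all 14482 genes tested were past it (6.22% higher and 11.8% lower). The median log2 difference was 0.09 over the 10 genes and -0.07 over all genes. Against IRI24h-TD the count was again 2 (Col4a6 higher, Col4a1 lower), beside 20.1% of all genes (5.78% higher, 14.3% lower), with medians of 0.16 and -0.06. Between the IRI libraries no member was past 2-fold, beside 6.76% of all genes, and the log2 differences of IRI24h-TD from IRI24h-TDN ran from -0.10 to 0.40, the highest being that of Col4a2. Pooled over the 3 libraries, whose cells are unevenly spread over the clusters, the 7 podocyte-like clusters held 2936 to 3410 CPM of Col4a3 and 588 to 747 CPM of Col4a5.

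**Figure D4:**
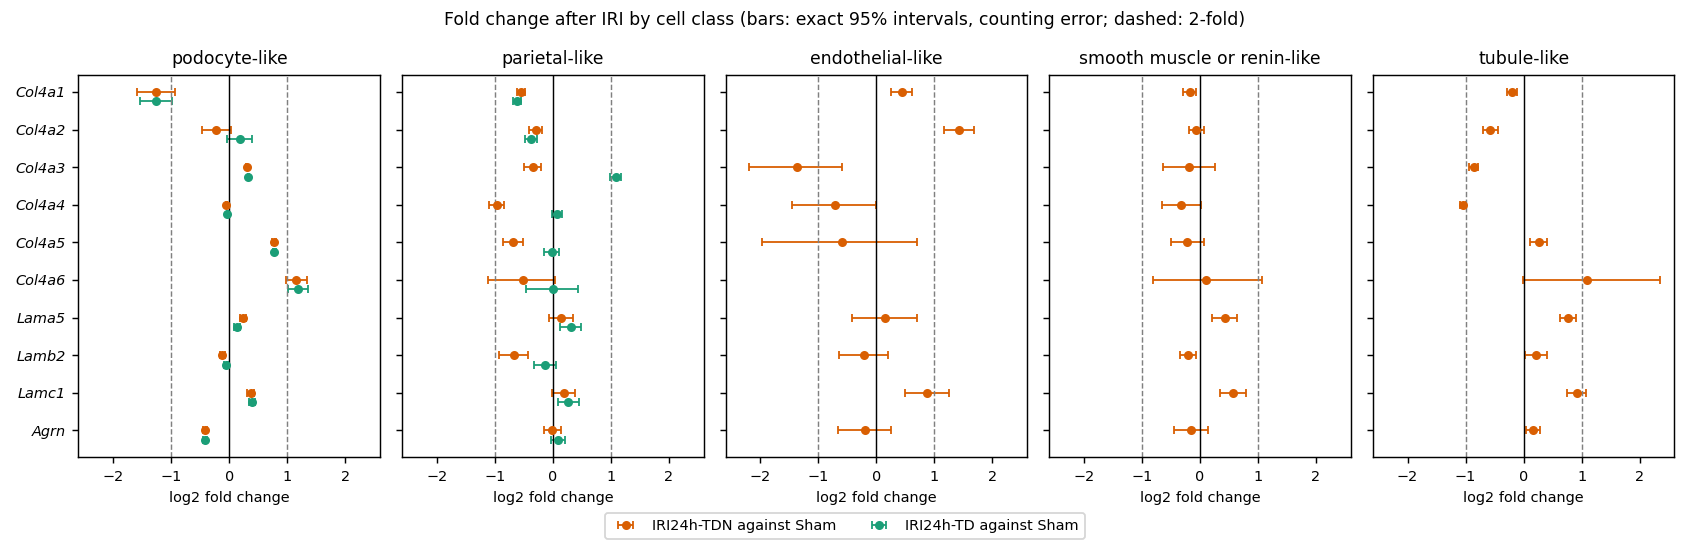
Log2 fold change of each gene from Sham (horizontal axis) in 5 classes, for IRI24h-TDN and, in podocyte-like and parietal-like cells, IRI24h-TD. Bars are exact 95% intervals of counting error and dashed lines mark 2-fold. Col4a6 lies at 1.15 and 1.18 and Col4a5 at 0.77 and 0.78 in podocyte-like cells, and Col4a2 at 1.42 in endothelial-like cells.

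In parietal-like cells most of the collagen IV chains were lower in IRI24h-TDN than in Sham, without passing 2-fold. Col4a4 was 497 CPM in Sham and 254 (234 to 275) in IRI24h-TDN, a log2 difference of -0.97 (-1.10 to -0.84). Col4a1 was 1134 and 775 CPM, a log2 difference of -0.55 (-0.62 to -0.48), and Col4a5 224 and 140 CPM, a log2 difference of -0.68. Lamb2 was 112 and 70.1 CPM, while Agrn, at 232 and 231 CPM, was level. Of the 10 genes, 8 were below Sham, counting Agrn at a log2 difference of -0.007, and the share of all genes below Sham was not counted. None was past 2-fold, beside 17.7% of all genes (5.96% higher, 11.7% lower), and the median was -0.43 against -0.07 over all genes. The count of 0 rested on the processing: it was 4 without the top 6% of doublet scores, 2 with at least 500 genes per cell and 1 under 4 other settings.

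The tdT+ library differed from the mixture here. In parietal-like cells of IRI24h-TD, Col4a3 was 576 CPM (549.5 to 603), above the 271 of Sham and the 214 of IRI24h-TDN, and a log2 difference of 1.08 (0.99 to 1.18) from Sham. It was the 1 gene past 2-fold, beside 15.9% of all genes (4.92% higher), with a median of 0.03 against -0.02. Col4a4 was 521 CPM, near Sham, and Col4a1 739.6 CPM, a log2 difference of -0.62, near that of IRI24h-TDN. Between the IRI libraries Col4a3 and Col4a4 were past 2-fold, with log2 differences of 1.43 and 1.04, beside 7.04% of all genes (3.86% higher).

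Podocyte markers in the parietal-like class moved with these values. Sham held 3519 CPM of the summed list, IRI24h-TDN 2396 and IRI24h-TD 5614, and cluster 14, which carries most of them, held 230 of 749, 54 of 209 and 94 of 282 parietal-like cells. Within cluster 14, Col4a3 was 756, 670 (589.6 to 757) and 1701 CPM. It was 137, 124 and 180 CPM in cluster 10 and 134, 138 and 262 CPM in cluster 16. With cluster 14 left out, no gene was past 2-fold between IRI24h-TD and Sham. The part of the podocyte RNA in the Col4a3 difference was not tested. In contrast, Col4a1 in cluster 10 was 983, 591 and 697 CPM and in cluster 16 1829, 1235 and 1225 CPM, lower after IRI in both, while in cluster 14 it was 552, 759.5 and 370.1 CPM.

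In endothelial-like cells the alpha-1 and alpha-2 chains and gamma-1 laminin were higher after IRI. Col4a2 was 390.2 CPM (335 to 452) in Sham and 1041 (945 to 1145) in IRI24h-TDN, a log2 difference of 1.42 (1.16 to 1.68). Col4a1 was 937 and 1265 CPM (1159 to 1379), a log2 difference of 0.43 (0.25 to 0.62), and Lamc1 207 (167 to 254) and 377 CPM (320.1 to 441), a log2 difference of 0.86 (0.48 to 1.25). None of these 3 pairs of intervals overlapped. Both Col4a1 and Col4a2 were detected in 40.1% of endothelial-like cells in Sham and 80.0% in IRI24h-TDN, with median UMIs of 2220 and 3553. These values rest on 177 and 95 cells. The class was not split by vessel type, and the part of glomerular endothelium in it is not known.

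Of 9 genes with enough UMIs, 2 were past 2-fold in endothelial-like cells, Col4a2 above and Col4a3 below, beside 20.3% of all genes (9.06% higher, 11.2% lower), with medians of -0.20 and -0.01. Col4a3 was 119 and 46.2 CPM (54 and 19 UMIs), and in IRI24h-TDN its interval, 27.8 to 72.2, overlapped that of monocytic-like cells, 23.1 to 33.9. The podocyte list in endothelial-like cells stood at 4517 and 4836 CPM. In smooth muscle or renin-like cells no gene was past 2-fold, beside 15.2% of all genes. Their log2 differences ran from -0.32 (Col4a4) to 0.56 (Lamc1, 171 and 253 CPM), with Lama5 at 0.42 (185 and 249 CPM), and the medians were -0.17 over the members and 0.03 over all genes. Within this class a subset of 68 cells had the highest summed mesangial list, but its renin gene Ren1 stood at 42311 CPM and it was not named mesangial. It held 1129 CPM of Col4a1 and 352 CPM of Lamb2.

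Tubule-like cells held lower levels of Col4a3 and Col4a4 and higher Lamc1 in IRI24h-TDN. Col4a4 was 448 CPM (437 to 459) in Sham and 217 (211 to 223) in IRI24h-TDN, a log2 difference of -1.05 (-1.10 to -0.99), and Col4a3 222 and 123 CPM, a log2 difference of -0.86 (-0.93 to -0.78). Lamc1 was 31.5 and 59.3 CPM, a log2 difference of 0.91 (0.75 to 1.07), and Lama5 42.8 and 72.5 CPM, a log2 difference of 0.76. In thinned cells, Col4a4 was detected in 59.2% of tubule-like cells in Sham and 34.2% in IRI24h-TDN, and in 14.1% and 6.94% of monocytic-like cells. The level of Col4a4 in monocytic-like cells, 70.8 and 35.7 CPM, was lower in IRI24h-TDN as well, and its part in the tubule values was not tested. The genes past 2-fold were 2 of 10, Col4a4 lower and Col4a6 higher (9 and 31 UMIs), beside 30% of all genes (14.3% higher, 15.7% lower), with medians of 0.19 and 0.04.

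The tubule-like class changed its make-up between the libraries, so the segments were also read one by one. Proximal-like cells, which reabsorb most of the filtrate, numbered 954 in Sham and 155 in IRI24h-TDN. In them Col4a4 was 441 CPM (426 to 455) in Sham and 105 (93.5 to 118) in IRI24h-TDN, a log2 difference of -2.07 (-2.24 to -1.90), or 4.19-fold lower. Col4a3 was 274 and 85.9 CPM, 3.19-fold lower. Lamc1 was 20.5 and 54.2 CPM, 2.64-fold higher, Col4a1 140.0 and 217 CPM, a log2 difference of 0.63, and Agrn 70.8 and 130.4 CPM, a log2 difference of 0.88. Of 9 genes, 3 were past 2-fold, 1 higher and 2 lower, beside 33.7% of all genes (18.3% higher, 15.4% lower).

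In the other segments Col4a4 was lower in IRI24h-TDN too, but by less. It was 370.2 and 223 CPM in ascending limb-like cells, 684 and 317 CPM in connecting or principal-like cells and 322 and 234 CPM in intercalated-like cells, log2 differences of -0.73, -1.11 and -0.46. Col4a3 was lower in ascending limb-like cells (175 and 102.5 CPM) but higher in connecting or principal-like cells (152 and 184 CPM) and intercalated-like cells (138 and 191 CPM). The summed podocyte list of intercalated-like cells was higher too, at 1777 and 2744 CPM, and that of connecting or principal-like cells was 1663 and 1673 CPM, and their part in Col4a3 was not tested. Counts past 2-fold were 0 of 9 in ascending limb-like, 1 of 9 in connecting or principal-like and 0 of 9 in intercalated-like cells, beside 23.2%, 20.7% and 18.3% of all genes. The 1 gene was Col4a4, and 9.86% of all genes were past 2-fold lower in connecting or principal-like cells. Distal convoluted-like cells had only 47 cells in Sham and were not compared.

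**Figure D5:**
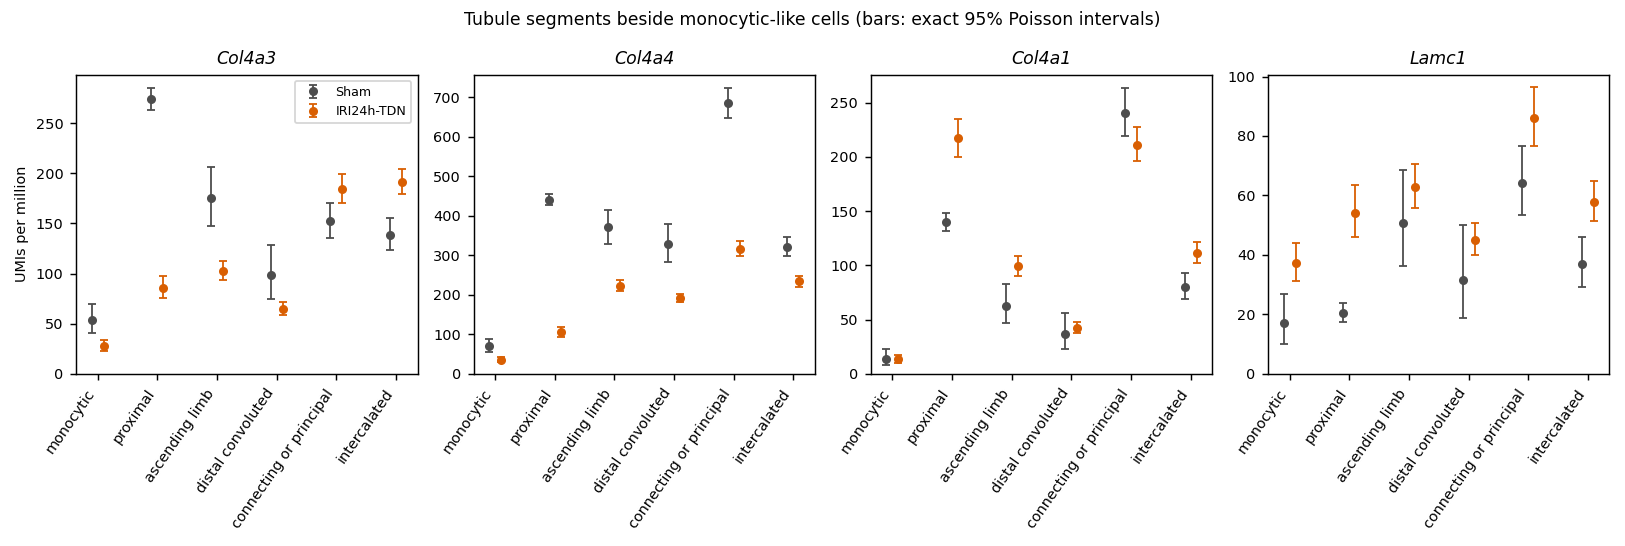
Col4a3, Col4a4, Col4a1 and Lamc1 in CPM (linear axis) in monocytic-like cells and the tubule segments, in Sham and IRI24h-TDN; bars are exact 95% Poisson intervals. Col4a4 is lower in IRI24h-TDN in every segment compared, most in proximal-like cells at 441 and 105 CPM, and Lamc1 is higher, at 20.5 and 54.2 CPM there. Distal convoluted-like cells are drawn but were not compared, as Sham held only 47 of them.

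Several measures moved with the proximal-like values. The summed proximal list of these cells was 62708 CPM in Sham and 10534 in IRI24h-TDN, the parietal list 157 and 1167 CPM and the median UMIs 7264 and 14869. Of the 2 proximal-like clusters with at least 50 cells in both libraries, cluster 8 held 344 and 91.8 CPM of Col4a4 and 16.6 and 60.5 CPM of Lamc1. Cluster 17 held 484 and 116 CPM of Col4a4 and 16.1 and 46.9 CPM of Lamc1, so both gave the differences of the class. In IRI24h-TDN, Col4a4 was 98.97 CPM in the 126 proximal-like cells with a UMI of Havcr1, a gene of injured proximal tubule, and 155 in the 29 without, and in Sham 406 in 35 cells with and 442 in 919 without. The part of these measures in the difference was not tested.

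The share of Col4a1 and Col4a2 in collagen IV followed the segments. It was 22.9% in Sham and 56.3% in IRI24h-TDN in proximal-like cells, 13.9% and 29.2% in ascending limb-like, 25.4% and 31.4% in connecting or principal-like and 20.1% and 24.5% in intercalated-like cells. In monocytic-like cells it was 17.5% (12.0 to 24.1) and 23.7%. Col4a3 gave only 18.2% (16.3 to 20.2) of the Col4a3 and Col4a4 UMIs of connecting or principal-like cells in Sham, the lowest share among the tubule classes compared here, and 36.8% in IRI24h-TDN.

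The 163 tubule-like cells of IRI24h-TD came from a tdT+ sort, and their podocyte list stood at 3138 CPM, against 1140 in Sham, and their parietal list at 1388 CPM, against 194. In them 4 of 10 genes were past 2-fold from Sham, all higher (Col4a5, Col4a6, Lamc1 and Agrn), beside 28.0% of all genes (16.2% higher). The Col4a6 value rested on only 9 UMIs in Sham and 10 in IRI24h-TD. Agrn was 68.2 CPM in Sham and 141 (123 to 161) in IRI24h-TD, and Lamc1 31.5 and 70.8 (58.2 to 85.2). In the 81 proximal-like cells, whose parietal list stood at 2197 CPM against 157 in Sham and whose podocyte list at 1698 against 935, 7 of 9 genes were past 2-fold beside 36.1% of all genes (23.8% higher, 12.4% lower), among them Col4a4 (441 and 192 CPM) as the 1 lower gene and Lamc1 (20.5 and 60.4 CPM), Agrn (70.8 and 175 CPM) and Lamb2 (15.3 and 35.0 CPM) higher. The part of these marker lists in the differences was not tested.

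To place the genes among all others, each was correlated with 14272 genes over 27 points, a point being the log2 level in 1 class of 1 library. The points share libraries, depth and spread podocyte RNA, so the coefficients are a description. Col4a1 was most like Col4a2 (Pearson r = 0.954), then Tinagl1 (0.926), which encodes a basement membrane protein, and Id3 (0.918). Col4a3 was most like Shisa3 (0.951), Mpp5 (0.95) and Robo2 (0.947), Col4a4 like Arhgap24 (0.959), Col4a3 (0.947) and Bmp7 (0.934), and Col4a5 like Tmem18 (0.959), Dag1 (0.956), the laminin and agrin receptor dystroglycan, and Igfbp7 (0.951).

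Col4a6 was most like Ctgf (0.966), Kank2 (0.925) and Cavin1 (0.915), and Lamc1 like Rab12 (0.912), Arid5b (0.903) and Cavin1 (0.899). Lama5 was most like Epn2 (0.953), Pls3 (0.947) and Zfp260 (0.943). Lamb2 was most like Mprip (0.95), Tns2 (0.945) and Strn3 (0.943), and Agrn like Vangl1 (0.939), Wwtr1 (0.927) and Zc3h7b (0.924). Col4a2 had Col4a1 first, followed by Pear1 (0.926) and Afap1l2 (0.923). Within the list, Col4a5 and Col4a6 had r = 0.875, Lamb2 and Lamc1 0.854, and Col4a3 and Col4a1 -0.20.

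A list of 46 related genes was read beside the 10. Of 16 other basement membrane parts, 15 could be compared in podocyte-like cells between IRI24h-TDN and Sham, and 2 were higher and 3 lower past 2-fold, beside 6.22% and 11.8% of all genes. Nid1, the laminin and collagen IV linker nidogen, was among the higher ones, at 2.42 CPM in Sham against 9.16 and 9.54 after IRI (IRI24h-TDN, then IRI24h-TD). These levels of Nid1 were low, and the part of background RNA in them was not tested. Npnt, an integrin ligand of the glomerular basement membrane, was lower, at 4056 and 1926 CPM, a log2 difference of -1.07, and -1.02 in IRI24h-TD. The other 2 lower genes, Lama1 and Lama3, had only 30 and 14 UMIs over both libraries. Hspg2 (perlecan) was 4.77 CPM in Sham and 4.56 in IRI24h-TDN, and the log2 difference of Nid2 was -0.20. In Sham both Nid1 and Hspg2 stood higher in parietal-like cells, at 188 and 58.9 CPM.

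Collagen and laminin assembly genes, the chaperones and hydroxylases of the secretory pathway, showed no member past 2-fold in podocyte-like cells (0 of 14, median -0.08) or parietal-like cells (0 of 14, median -0.28). The shares of all genes past 2-fold were 18.1% and 17.7%. Of 12 receptor genes, 1 was higher past 2-fold in podocyte-like cells, beside 6.22% of all genes. It was Itga2, a collagen-binding integrin subunit, at 42.4 CPM in Sham and 109 in IRI24h-TDN. Among 4 regulators in podocytes, only Foxc2 was lower past 2-fold, at 379 and 175 CPM, beside 11.8% of all genes. Lmx1b, a transcription factor known to act on Col4a3 and Col4a4, was 396, 307 and 301 CPM in the 3 libraries, not past 2-fold.

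In parietal-like cells 1 of 16 other basement membrane parts was higher and 4 lower past 2-fold in IRI24h-TDN, beside 5.96% and 11.7% of all genes. The 4 lower genes were Lama2, the alpha-2 laminin chain (19.1 and 3.76 CPM), Lamc3 (98 and 3 UMIs), Nid2 (17.9 and 6.26 CPM) and Npnt (893 and 399.7 CPM), and the higher gene was Lamb3, with 1 and 11 UMIs. The log2 differences of Nid1 and Hspg2 were -0.30 and -0.50. Itga1, a collagen receptor subunit, was 827 and 315 CPM, and Itga6, a laminin receptor subunit, was higher, at 101.8 and 221 CPM. Foxc2 was lower here too, at 98.1 and 39.6 CPM, and the log2 difference of Lmx1b was -0.73. Lamb1 was 256 CPM in Sham and 211 in IRI24h-TDN, so the low Lamb2 share of this class was present in both libraries. In tubule-like cells 4 of 13 other basement membrane parts were higher and 3 lower, 4 of 14 assembly genes lower and none higher, and 6 of 12 receptor genes higher and 1 lower, beside 14.3% of all genes higher and 15.7% lower. In endothelial-like cells 2 of 12 other basement membrane parts were higher and 2 lower, beside 9.06% and 11.2% of all genes. Tinagl1, singled out after its values were seen, was among the higher ones, at 553 CPM in Sham and 1652 in IRI24h-TDN.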

How the data were processed

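UMI counts of kidney cortex cells were analysed in 3 libraries of the BD Rhapsody platform. The authors deposited whole-number UMI counts per gene and barcode. The submitters' processing notes name CASAVA 1.8, UMI-tools, Seurat and the mm10 build, with roles that are not given in the sources used here, and the study states that multiplets were excluded after cell selection.

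Here, barcodes were kept if they had 200 or more detected genes and no more than 50% of UMIs from mitochondrial genes. The 10 genes and 46 related genes were left out of the clustering (2000 variable genes, 30 principal components, a Harmony correction between libraries, 15 neighbours, Leiden resolution 1; Python 3.11.15, numpy 2.4.6, scikit-learn 1.9.0, leidenalg 0.10.2), which gave 36 clusters. Doublets were scored by simulation and kept in the main result. A cluster took the name of 1 of 14 marker lists when at least 3 markers were detected in 10% of its cells and its score was at least 1, and clusters of another class above 15000 CPM of podocyte markers (5 clusters, 344 cells) stayed unnamed. These limits were set after the clusters, and some levels of the genes, had been seen. In all, 10 clusters (1240 cells) were unnamed. No mesangial-like class was found, so smooth muscle or renin-like cells replaced it, a departure from the planned classes.

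UMIs were summed per class and library and divided by the class total (CPM). With 1 library per group there was no test. For the shares of detected cells, every cell was thinned to 2400 UMIs, leaving out 1368 shallower cells. The text names all 10 genes, for each the 3 genes of highest Pearson r among those with at least 100 UMIs, the related genes past 2-fold in podocyte-like or parietal-like cells of IRI24h-TDN with at least 50 UMIs, and always Lamb1, Nid1, Nid2, Hspg2 and Lmx1b. Of the genes this rule names, 1 is not reported here. Lama1, Lama3, Lamb3 and Tinagl1 (endothelial-like) were named after their values were seen. The members and gene lists were chosen with earlier results of these data known. The code was tested on simulated counts. Scaling factors came from edgeR 4.0.16 in R 4.3.3, 16 alternatives were tried, and 3 of them were chosen after seeing the data.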

Additional observations from a re-analysis of the deposited data

How the results depend on the processing

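No paired analysis was possible because each group has 1 library. The planned mesangial-like result could not be computed under any setting. The number of genes highest in podocyte-like cells stayed at 4 under the alternatives run. In parietal-like cells of IRI24h-TDN, the count past 2-fold (0) was 2 with at least 500 genes per cell, 4 without the top 6% of doublet scores, and 1 with at most 20% mitochondrial UMIs, with no correction between libraries, with resolution 2 and without cells richer in another list. In tubule-like cells of IRI24h-TDN (2) it was 1 with at least 500 genes or with no limit on podocyte genes, and 4 in thinned cells. It was 3 there without the top 6% of doublet scores or without cells richer in another list. In endothelial-like cells of IRI24h-TDN (2) it was 3 with no limit on podocyte genes or with no minimum of UMIs. In parietal-like cells of IRI24h-TD (1) it was 0 with at most 20% mitochondrial UMIs, without doublets, with no correction, with resolution 0.5, without cells richer in another list and without cluster 14, and 2 in thinned cells. The cause was not tested. Of 660 levels recomputed, 512 stayed within the counting interval, and of 270 fold changes 214 did, with no called value reversed. The log2 difference of Col4a6 in podocyte-like cells of IRI24h-TDN ran from 1.10 to 1.33, that of Col4a5 from 0.77 to 0.81 and that of Col4a1 from -1.62 to -1.16, whereas in parietal-like cells Col4a4 ran from -1.62 to -0.59 and Col4a3 from -1.08 to 0.40. The settings without a limit on podocyte genes, without cluster 14 and with markers counted from 25% of cells were chosen after seeing the data. Col4a6 rested on only 9 UMIs in tubule-like and 1 in endothelial-like cells of Sham.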

Other observations

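Cluster 13 (408 cells: Sham 109, IRI24h-TDN 113, IRI24h-TD 186) stayed unnamed: its leading genes were Igfbp2, Aldh1a1 and Fam180a, its podocyte list stood at 32629 CPM and its parietal list at 999 CPM. It held 2963, 3475 and 3638 CPM of Col4a3 in the 3 libraries, levels near those of podocyte-like cells, and 93.2, 42.0 and 41.2 CPM of Col4a1, above podocyte-like cells in each. Its Col4a5 stood at 496, 717 and 708 CPM in the same order, and Lamb2 gave 100%, 99.1% and 99.7% of its Lamb1 and Lamb2 UMIs.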
